A study of Mus musculus with 16 samples.

Results

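Eicosanoids are signalling lipids made from arachidonic acid, and 9 genes of their synthesis and sensing are described here in the immune cells of mouse melanomas: Ltc4s, Alox5, Alox5ap, Lta4h, Ltb4r1, Ptgs1, Ptgs2, Ptges and Hpgds. The members were chosen by gene symbol, and each of the 9 symbols matched 1 entry among the 32285 genes listed in every one of the 8 gene matrices. The data are counts of unique molecular identifiers (UMIs) from droplet single-cell RNA sequencing of cells enriched on CD45 beads from B16 tumours. C57BL/6J mice carried 1000000 implanted Bro4.1 B16 cells under the skin, either control cells or cells without B2m, the light chain of MHC class I. Anti-CD40, called a CD40 agonist in the labels, or a rat IgG2a isotype control was injected intraperitoneally at 100 µg on day 6, day 9 and day 12, and tumours were harvested at day 14. The sample labels give the genotype as that of the mouse (C57BL/6 WT or C57BL/6 B2M KO), whereas the design text places the loss in the implanted cells, and the design text was followed. A mouse is here 1 hashtag antibody of a pool, which gave 5 isotype and 2 CD40 mice with control tumours, and 5 isotype and 4 CD40 mice with B2m-null tumours. The 2 control CD40 mice came from 1 pool, run on 2 lanes that the labels call technical replicates, so that pool and its group cannot be told apart. Age and sex of the mice were not stated in the labels.

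Arachidonic acid, cut from membrane lipids by phospholipases, feeds 2 enzyme branches. In the lipoxygenase branch, 5-lipoxygenase (Alox5), held at the nuclear membrane by its activating protein (Alox5ap), makes leukotriene A4. Leukotriene A4 hydrolase (Lta4h) turns it into leukotriene B4, a neutrophil attractant read by the receptor BLT1 (Ltb4r1), and leukotriene C4 synthase (Ltc4s) turns it into the first of the cysteinyl leukotrienes. In the cyclooxygenase branch, the steadily made enzyme COX-1 (Ptgs1) and the inducible COX-2 (Ptgs2) make prostaglandin H2, from which the inducible synthase Ptges makes prostaglandin E2 and the haematopoietic synthase Hpgds makes prostaglandin D2. Macrophages, monocytes, neutrophils, dendritic cells and mast cells are known sources of these lipids, and prostaglandin E2 is known to restrain immune cells in tumours.

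The 8 lanes held 541.1 M UMIs (M, 1000000), between 45.99 and 99.26 M each, with a median of 1715 to 4225 UMIs per barcode. Of 116552 barcodes, 9673 were hashtag doublets, 19769 had no assigned hashtag, and 74296 assigned cells passed the filters. Hashtags were assigned to 24.87% to 90.95% of barcodes per lane, the lowest share being in pool 1 of the B2m-null isotype group. Any 2 lanes shared at most 92 cell barcodes, or 0.623%. Clustering without the 9 members gave 29 clusters, of which 3 stayed unnamed, and names such as macrophage-like and monocyte-like, written below without "-like", rest on marker lists. The macrophage-like class joined 7 clusters, among them cluster 2 (led by Cd209f, Lyve1 and Cd163), cluster 3 (H2-M2, Gpnmb), cluster 5 (Mmp12, Mmp13, Arg1), clusters 9 (Clec4b1, Cd300e, Vcam1) and 11 (Stab1, Fcrls, Mrc1), and cluster 21 (interferon genes such as Rsad2). In both clusters 9 and 11, 6 of 6 cell cycle markers were raised against the other macrophage and monocyte clusters. The monocyte-like class joined cluster 0 (Chil3, Vcan, Plac8) and cluster 8 (Ly6i, Fpr2, Nos2), the latter with only 3 of 10 monocyte markers raised. Although cells were selected for CD45, 1 cluster carried melanoma genes and 2 carried fibroblast or mural genes. Levels are given as CPM, the UMIs of a gene per 1000000 UMIs summed over one mouse's cells of a class, for mice with at least 20 such cells. Since the chemistry reads transcript ends, levels are compared between cells and mice, not between genes.

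The members lie on 7 chromosomes of the GRCm38 build. Ltc4s (ENSMUSG00000020377) is at chr11:50236461-50238616 on the minus strand, Alox5 at chr6:116410077-116461178 (minus), Alox5ap at chr5:149264767-149288153 (plus), Lta4h at chr10:93453411-93484875 (plus) and Ltb4r1 at chr14:55765962-55768494 (plus). Ptgs1 is at chr2:36230426-36252272 (plus), Ptgs2 at chr1:150100031-150108227 (plus), Ptges at chr2:30889471-30929863 (minus) and Hpgds at chr6:65117293-65144908 (minus). Antisense genes overlap Ltc4s (Gm26542, 105 UMIs against 11769) and Alox5ap (Gm19719, 24 UMIs against 131758), and the sources used here do not say whether the counting used strand. Antisense genes without a row in the matrices also overlap Alox5ap (n-R5s180), Ptgs1 (Gm43621) and Hpgds (Gm17147). Gm13400, which overlaps Ptges on the same strand, has no row either, so that its reads and those of Ptges cannot be told apart. The 150 bases before the start are shown for Ptgs2 and Ptges, which act one after the other on the way to prostaglandin E2, because their levels are followed side by side below. They are RefSeq sequences of GRCm38.p6, written 5′ to 3′ on the gene's strand, chr1:150099881-150100030 (plus) for Ptgs2 and chr2:30903298-30903447 (minus) for Ptges, with motif matches in capitals. The RefSeq start of Ptges lies within the gene range given above.
Ptgs2: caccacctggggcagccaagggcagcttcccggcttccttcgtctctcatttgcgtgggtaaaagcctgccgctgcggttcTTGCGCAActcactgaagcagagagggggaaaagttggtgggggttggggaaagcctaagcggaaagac
Ptges: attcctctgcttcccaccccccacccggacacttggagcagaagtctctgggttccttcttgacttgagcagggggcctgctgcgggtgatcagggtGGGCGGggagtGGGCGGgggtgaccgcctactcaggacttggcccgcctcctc
The capitals in Ptgs2 mark the C/EBP motif TTGCNNAA, 69 to 62 bases before the start on both strands, which 5.46% of 32851 promoters of the same length hold. The capitals in Ptges mark 2 GC boxes, GGGCGG, 53 to 48 and 42 to 37 bases before the start, a motif that 28.62% of these promoters hold. The TATA box TATAAA (7.57% of promoters), the cAMP response core TGACG (13.32%), the NF-kB motif (0.104%) and the AP-1 motif TGANTCA (4.24%), searched on both strands, had no match in these windows.

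Leukotriene C4 synthase was highest in 1 macrophage cluster. Ltc4s ran from 125 to 491 CPM (median 221, 16 mice) in cluster 2, the macrophages with Lyve1 and Cd163, markers that tissue-resident macrophages are known to carry. Across the other macrophage clusters the median stayed between 2.63 and 13.6 CPM, and the highest mouse was at 58.7 CPM in cluster 11. The unnamed cluster 4 (led by Ccl24, Retnla and Ear2) held 0 to 73.3 CPM (median 34.3, 16 mice), mature dendritic cells 10.4 to 77.02 CPM (median 20.02, 13 mice) and fibroblasts 4.22 to 223 CPM (median 25.2, 10 mice). T and NK cells, which should lack the gene, gave 0 to 2.74 CPM (median 0.897, 15 mice), and B cells gave 0 to 23.8 CPM (median 12.3, 13 mice). No mouse's cluster 2 overlapped in level with any mouse of cluster 4 or of mature dendritic cells, whereas fibroblasts and monocyte cluster 8, at 0 to 182 CPM (median 7.204, 12 mice), reached into the range of cluster 2. As Ltc4s was left out of the genes used to cluster, its place among the 10 leading genes of cluster 2 is a description of the cells, not a test.

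The other genes of the lipoxygenase branch were spread more widely, each in its own way. Among classes with at least 20 cells in a mouse, which leaves out mast cells, Alox5 was highest in the same cluster 2, at 18.5 to 62.8 CPM (median 35.3, 16 mice), followed by neutrophils at 0 to 37.3 CPM (median 18.7, 11 mice), whose range overlapped with it. Next were the unnamed cluster 15 at 1.19 to 12.95 CPM (median 7.07, 2 mice) and type 2 dendritic cells at 0 to 26.9 CPM (median 6.58, 15 mice). Alox5ap was present throughout the myeloid cells, with 563 to 884 CPM (median 766, 14 mice) in monocyte cluster 0, 555 to 849 CPM (median 692, 16 mice) in cluster 2, 509 to 755 CPM (median 619, 13 mice) in type 1 dendritic cells and 438 to 674 CPM (median 594, 11 mice) in neutrophils. These ranges overlap one another, and mature dendritic cells, at 99.5 to 377 CPM, lay below all 4 of them. T and NK cells gave 8.06 to 24.7 CPM. Lta4h was not highest in macrophages: melanoma cells had 57.99 to 109.7 CPM (median 96.2, 9 mice), NK cells 61.7 to 128 CPM (median 82.5, 13 mice), type 2 dendritic cells 34.3 to 110.4 CPM (median 70.1, 15 mice) and T and NK cells together 47.2 to 104 CPM (median 63.9, 15 mice), against 19.7 to 31.8 CPM (median 25.4, 16 mice) in macrophages. Ltb4r1, the leukotriene B4 receptor, was highest in monocyte cluster 0, at 96.8 to 239 CPM (median 169, 14 mice). It fell off over cluster 4 with 82.9 to 176 CPM (median 118, 16 mice), cluster 8 with 57.7 to 169.6 CPM (median 109, 12 mice) and neutrophils with 38.9 to 168 CPM (median 93.3, 11 mice), neighbours whose ranges overlap. In cluster 2 it was at 0 to 17.2 CPM (median 12.5, 16 mice), below every mouse of cluster 0. CD4 T cells held 10.5 to 185 CPM (median 61.3, 11 mice).

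In the cyclooxygenase branch, the enzymes that make prostaglandin H2 differed in where they were highest, although some classes held both. Among the same classes Ptgs2 was highest in neutrophils, at 542 to 2923 CPM (median 1362, 11 mice), and followed in cluster 8 with 465 to 864 CPM (median 583, 12 mice), cluster 5 with 187 to 979 CPM (median 502, 15 mice), cluster 4 with 279 to 706 CPM (median 449, 16 mice) and cluster 0 with 179.7 to 779 CPM (median 446, 14 mice), all of which overlap. In cluster 2 it was lowest among these clusters, at 16.9 to 127 CPM (median 60.9, 16 mice), and T and NK cells gave 6.41 to 43.8 CPM. Ptgs1 was instead highest among macrophages in cluster 2, at 7.18 to 42.2 CPM (median 22.4, 16 mice), with 36.8 to 49.7 CPM (median 43.3, 2 mice) in endothelial cells and 5.16 to 29.4 CPM (median 12.02, 10 mice) in fibroblasts. Neutrophils also held Ptgs1, at 0 to 23.4 CPM (median 10.25, 11 mice), and fibroblasts also held Ptgs2, at 116 to 383 CPM (median 196, 10 mice). Cluster 2 thus held the highest macrophage levels of Ltc4s, Alox5 and Ptgs1 together with low levels of Ptgs2 and Ltb4r1. Clusters 9 and 11 shared the low levels, with Ptgs2 medians of 69.3 and 71.75 CPM and Ltb4r1 medians of 10.66 and 11.28 CPM. With clustering at resolution 2, Ltc4s was a leading gene of a macrophage cluster led by Lyz1 and Gbp2b (3408 cells). It was not among the 10 leading genes of the cluster led by Cd209f, Lyve1 and Cd163 (3496 cells).

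The synthases that act on prostaglandin H2 also differed in where they were highest. Ptges was highest in fibroblasts, at 18.1 to 68.5 CPM (median 43.1, 10 mice), and among immune cells in cluster 5, led by Mmp12, Mmp13, Ppbp and Arg1, at 0 to 59.7 CPM (median 14.5, 15 mice). Cluster 5 had 3 of 10 macrophage markers raised, and at resolution 2 the cluster led by Ppbp, Cxcl3 and Arg1 (4088 cells) had 2 of 10 raised and was unnamed. The ranges of these 2 overlap, and cluster 5 was also the macrophage cluster with the highest median of Ptgs2. No Ptges UMI was counted in NK cells of any of 13 mice, and T and NK cells together did not exceed 0.658 CPM. Hpgds was highest in the macrophage clusters 11, at 89.5 to 195 CPM (median 134, 16 mice), and 9, at 49.7 to 188 CPM (median 129, 15 mice), with 40.01 to 143 CPM (median 95.7, 16 mice) in cluster 2, 39.5 to 106 CPM (median 91.1, 9 mice) in melanoma cells and 21.7 to 62.1 CPM (median 33.96, 15 mice) in cluster 5. Clusters 11, 9 and 2 overlap, and monocyte cluster 0 had 0 to 52.6 CPM (median 5.43, 14 mice).

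**Figure D1:**
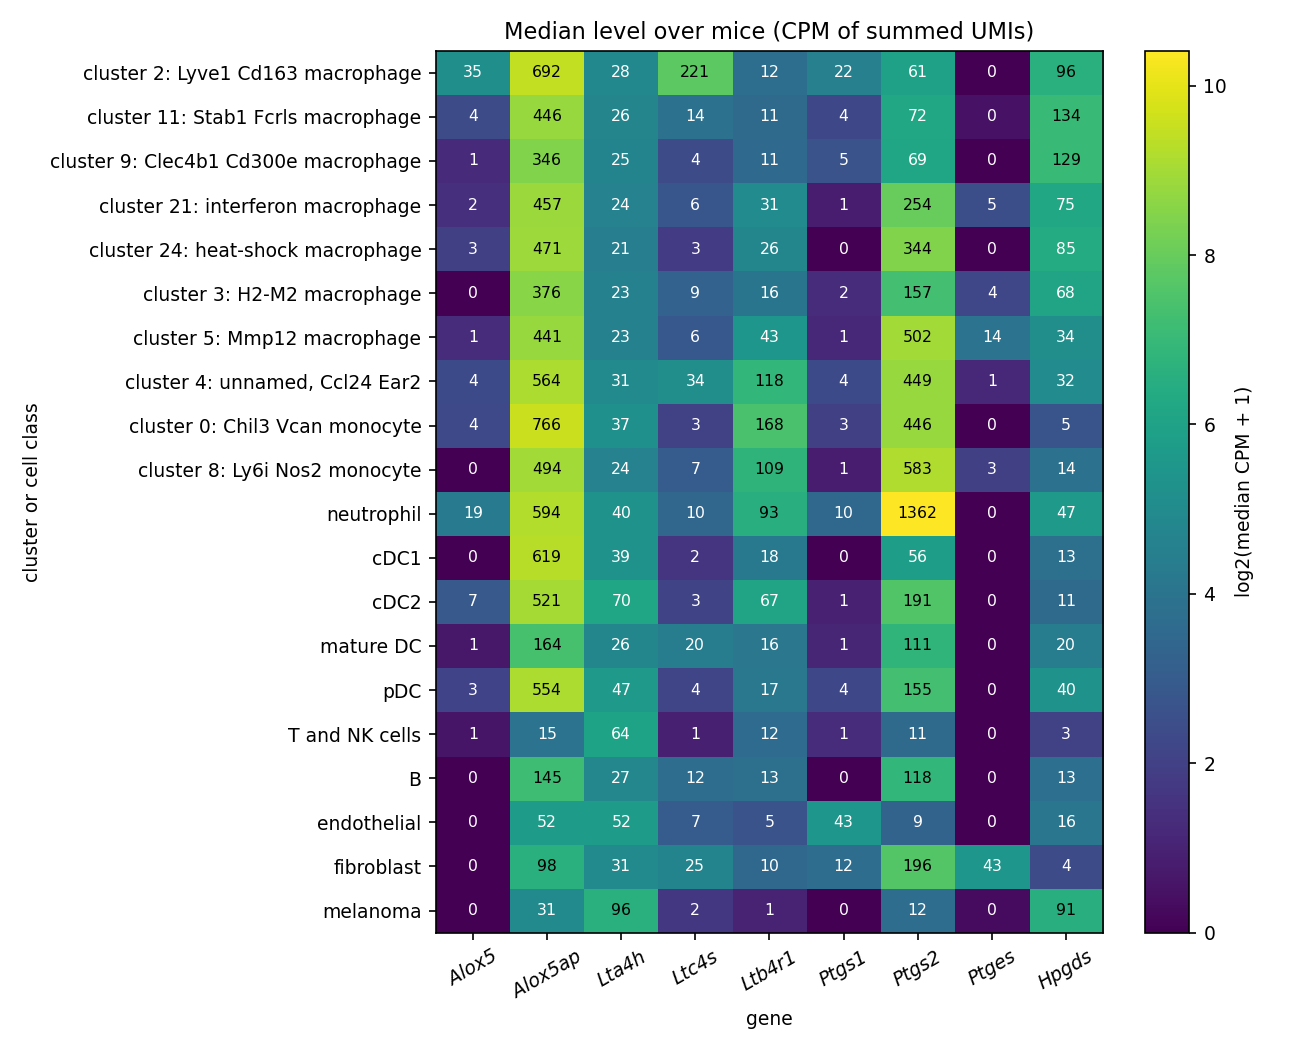
Level of each of the 9 genes by cell class and macrophage cluster, in CPM of summed UMIs; each value is the median over mice with at least 20 cells of the class, coloured by its log2 after adding 1. Ltc4s and Alox5 peak in cluster 2, Ptgs2 in neutrophils, Ptges in fibroblasts and cluster 5, and Hpgds in clusters 11 and 9.

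Mast cells, a textbook source of leukotriene C4 and prostaglandin D2, were too few for a comparison of groups. The 80 cells of the mast-cell- or basophil-like cluster, led by Cma1, Mcpt4 and Cpa3 and counted with cells that had no hashtag, held 96926 UMIs. Of these cells, 34 and 7 came from isotype and CD40 mice with control tumours, and 26 and 13 from those with B2m-null tumours. In their sum Ptgs2 had 147 UMIs in 32 cells, or 1517 CPM (exact 95% Poisson interval 1281 to 1783, counting error only). Alox5 had 29 UMIs, or 299 CPM (200.4 to 430), which lay above the highest mouse of cluster 2, and Alox5ap had 110.0 UMIs, or 1135 CPM (933 to 1368). Hpgds had 8 UMIs, or 82.5 CPM (35.6 to 163), and Ltc4s had 3 UMIs, or 30.95 CPM (6.38 to 90.45). Lta4h and Ltb4r1 had 6 UMIs each, or 61.9 CPM (22.7 to 135). No UMI of Ptgs1 or Ptges was counted, which allows up to 38.1 CPM by the same interval.

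For each member, up to 3 genes most like it were taken by Pearson's r of the mean log2(CPM + 1) over 16 myeloid classes and clusters, among 10198 genes. These units share libraries and differ in depth, so r is a description. Ltc4s was most like A4galt (r = 0.85) and Man1a (0.79), and Alox5 was most like Tmem71 (0.92), Gm15675 (0.92) and Ints6l (0.90). Alox5ap was most like Fli1 (0.87), Nfam1 (0.85) and Fos (0.84), Lta4h like Sash3 (0.93), Tbl1xr1 (0.91) and Hipk1 (0.90), and Ltb4r1 like Emb (0.91), S100a6 (0.91) and Pim3 (0.90). Among the cyclooxygenases, Ptgs1 was most like Arsg (0.85), Scarb2 (0.84) and Lbp (0.83), and Ptgs2 like Clec4e (0.94), Tarm1 (0.91) and Ier3 (0.88). Ptges was most like Spsb4 (0.90), Cav1 (0.89) and Slc22a4 (0.89), and Hpgds like Tceal9 (0.91), Crtap (0.90) and Calm2 (0.90).

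In macrophages, Hpgds was lower under anti-CD40 in both tumour types, and Ptges was higher under anti-CD40 in B2m-null tumours. The prostaglandin D2 synthase Hpgds was at 95.2, 106, 111, 114 and 149 CPM in 5 isotype mice and 56.2 and 73.9 CPM in 2 CD40 mice with control tumours, and the groups did not overlap. It was at 79.1, 104, 131, 158 and 161 CPM in 5 isotype mice and 50.8, 59.5, 72.3 and 73.7 CPM in 4 CD40 mice with B2m-null tumours, again without overlap. The fall passed edgeR's quasi-likelihood test in control tumours (log2 fold change -0.67, SE 0.23, adjusted p = 0.0445) and in B2m-null tumours (log2 fold change -0.82, SE 0.19, adjusted p = 0.00321). The prostaglandin E2 synthase Ptges was at 0, 0, 0.761, 1.11 and 3.38 CPM in 5 isotype mice and 7.295, 7.61, 7.83 and 18.6 CPM in 4 CD40 mice with B2m-null tumours. It was 7.34-fold higher under anti-CD40, without overlap (log2 fold change 2.88, SE 0.53, adjusted p = 7.62e-04). With control tumours the Ptges groups overlap, at 0.571, 0.845, 2.43, 2.54 and 5.05 CPM in 5 isotype mice and 3.83 and 4.37 CPM in 2 CD40 mice with control tumours (log2 fold change 0.84, SE 0.58, adjusted p = 0.315). COX-2, which feeds Ptges, did not pass in either tumour type. Ptgs2 was at 148, 171, 233, 262 and 269 CPM in 5 isotype mice and 149 and 193 CPM in 2 CD40 mice with control tumours (adjusted p = 0.813). It was at 51.2, 68.1, 81.5, 84.4 and 299 CPM in 5 isotype mice and 149, 197, 201 and 263 CPM in 4 CD40 mice with B2m-null tumours, where 1 isotype mouse lay above all CD40 mice (adjusted p = 0.0833).

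The members of the lipoxygenase pathway, Ltc4s included, did not pass in macrophages under anti-CD40 in either tumour type. Alox5ap, the activating protein, was at 360.0, 452, 469.6, 469.8 and 479 CPM in 5 isotype mice and 361 and 419 CPM in 2 CD40 mice with control tumours (log2 fold change -0.061). It was at 437, 463, 494, 558 and 649 CPM in 5 isotype mice and 421, 455, 472 and 473 CPM in 4 CD40 mice with B2m-null tumours (log2 fold change 0.031, and -0.18 with scaling by UMI totals). Lta4h, the hydrolase, was at 24.3, 26.6, 26.7, 28.5 and 29.3 CPM in 5 isotype mice and 19.7 and 20.6 CPM in 2 CD40 mice with control tumours, where the groups did not overlap (log2 fold change -0.28, SE 0.12, adjusted p = 0.09396). It was at 20.9, 27.00, 28.3, 30.2 and 31.8 CPM in 5 isotype mice and 21.03, 21.9, 23.1 and 23.5 CPM in 4 CD40 mice with B2m-null tumours (adjusted p = 0.182). The receptor Ltb4r1 was at 17.9, 17.96, 27.4, 29.8 and 35.1 CPM in 5 isotype mice and 13.03 and 20.6 CPM in 2 CD40 mice with control tumours (adjusted p = 0.386). COX-1, Ptgs1, was at 2.83, 3.99, 5.07, 5.08 and 5.81 CPM in 5 isotype mice and 4.06 and 5.46 CPM in 2 CD40 mice with control tumours (adjusted p = 0.825). In B2m-null tumours Ltb4r1 had an adjusted p of 0.835 and Ptgs1 of 0.342. Alox5, 5-lipoxygenase, was at 3.502, 3.804, 5.74, 9.72 and 10.4 CPM in 5 isotype mice and 2.88 and 6.28 CPM in 2 CD40 mice with control tumours (log2 fold change -0.49, SE 0.50, adjusted p = 0.512). It was at 8.74, 11.6, 14.1, 14.96 and 34.9 CPM in 5 isotype mice and 2.03, 7.61, 8.34 and 9.39 CPM in 4 CD40 mice with B2m-null tumours, where 1 CD40 mouse lay above the lowest isotype mouse (log2 fold change -0.76, SE 0.39, adjusted p = 0.1495).

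Of the 9 members, all tested in macrophages of 16 mice (28959 cells), 1 passed in control tumours, against 22.6% of 11931 genes, and 2 passed in B2m-null tumours, against 31.7%. Neither share was above that of all genes. The median log2 fold change of the members was -0.19 in control and -0.18 in B2m-null tumours, against -0.0071 and -0.0078 over all genes. The Hpgds and Ptges calls in B2m-null tumours held in all 25 alternatives, with log2 fold changes of -1.11 to -0.61 and 2.46 to 4.70. The Hpgds call in control tumours was lost in 11 of 24 alternatives (-0.94 to -0.45, adjusted p = 0.0503 to 0.371). For Hpgds these were the fits without control CD40 mouse 1 or 2, control CD40 lane 1 or 2 or control isotype pool 1 or 2 and the fits with lanes as units (also with unhashed cells added), macrophages and monocytes joined (also with the unnamed cluster between them) or a stricter cell filter.

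The CPM printed here are per total UMIs, whereas the tests scaled libraries by TMM (trimmed mean of M-values), which sets most genes near 0 change. In a fit scaled by UMI totals, added after seeing the data, the median of all genes lay at -0.1485 in control and -0.204 in B2m-null tumours for anti-CD40 in macrophages, and at -0.1052 and -0.1952 in monocytes, so that the fitted changes are relative to these shifts. Of the genes called in macrophages, 1423 of 2700 in control and 1924 of 3784 in B2m-null tumours were higher under anti-CD40 with TMM, against 874 of 3198 and 928 of 4539 with UMI totals. In monocytes 676 of 1200 and 1393 of 2703 were higher with TMM, against 494 of 1272 and 852 of 2951. With UMI totals Lta4h was also called in macrophages, lower under anti-CD40 in control (-0.42, adjusted p = 0.00903) and in B2m-null tumours (-0.37, adjusted p = 0.00408), and Ptgs1 was higher in B2m-null tumours under isotype antibody (1.07, adjusted p = 0.04795). With UMI totals the monocytes of control tumours also had lower Ltb4r1 (-0.76, adjusted p = 0.0194) and Alox5ap (-0.46, adjusted p = 0.04505) under anti-CD40.

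The makeup of the macrophage class moved with these changes. Cluster 3 took 48.30% to 49.89% of the macrophages of control CD40 mice, against 2.55% to 10.15% in control isotype mice, and Hpgds in cluster 3 was at 31.02 to 181 CPM. Cluster 11, with the highest Hpgds, took 2.07% to 2.19% in control CD40 and 10.15% to 24.91% in control isotype mice. With B2m-null tumours cluster 3 took 12.05% to 15.41% in CD40 and 0.588% to 2.46% in isotype mice, and cluster 11 10.79% to 13.55% in CD40 and 13.53% to 51.49% in isotype mice. T and NK cell genes in macrophages summed to 18.9 to 46.2 CPM in isotype and 59.8 to 90.1 CPM in CD40 mice with control tumours, and to 17.1 to 41.9 and 41.8 to 72.2 CPM with B2m-null tumours. Melanoma genes, whose cells held Hpgds (median 91.1 CPM), summed to 40.3 to 54.2 and 35.5 to 47.4 CPM with control tumours, with overlap. With B2m-null tumours they summed to 33.0 to 74.5 and 16.7 to 24.4 CPM, without overlap. Platelet genes summed to 2.87 to 25.2 and 3.14 to 3.41 CPM with control tumours, and to 11.8 to 96.4 and 3.44 to 9.21 CPM with B2m-null tumours. The part of these lists was not tested. Clusters 11 and 9 had higher medians of Hpgds (134 and 129 CPM) than cluster 2 (95.7 CPM), and their values by group are not reported here. Within cluster 2 alone, a fit added after seeing the data, Hpgds was lower under anti-CD40 in control tumours (log2 fold change -0.93, SE 0.20, adjusted p = 0.00309) and in B2m-null tumours (log2 fold change -0.67, SE 0.16, adjusted p = 0.00594). Its levels there were 95.3, 96.1, 106, 108 and 115 CPM in 5 isotype mice and 40.01 and 61.2 CPM in 2 CD40 mice with control tumours, without overlap. They were 71.3, 96.4, 123, 127 and 143 CPM in 5 isotype mice and 55.1, 61.4, 69.01 and 70.5 CPM in 4 CD40 mice with B2m-null tumours, again without overlap. Without control CD40 mouse 2 the cluster 2 call was lost in control tumours (-0.60, adjusted p = 0.224), and without B2m-null isotype pool 2 it was lost in B2m-null tumours (-0.52, adjusted p = 0.0735).

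**Figure D2:**
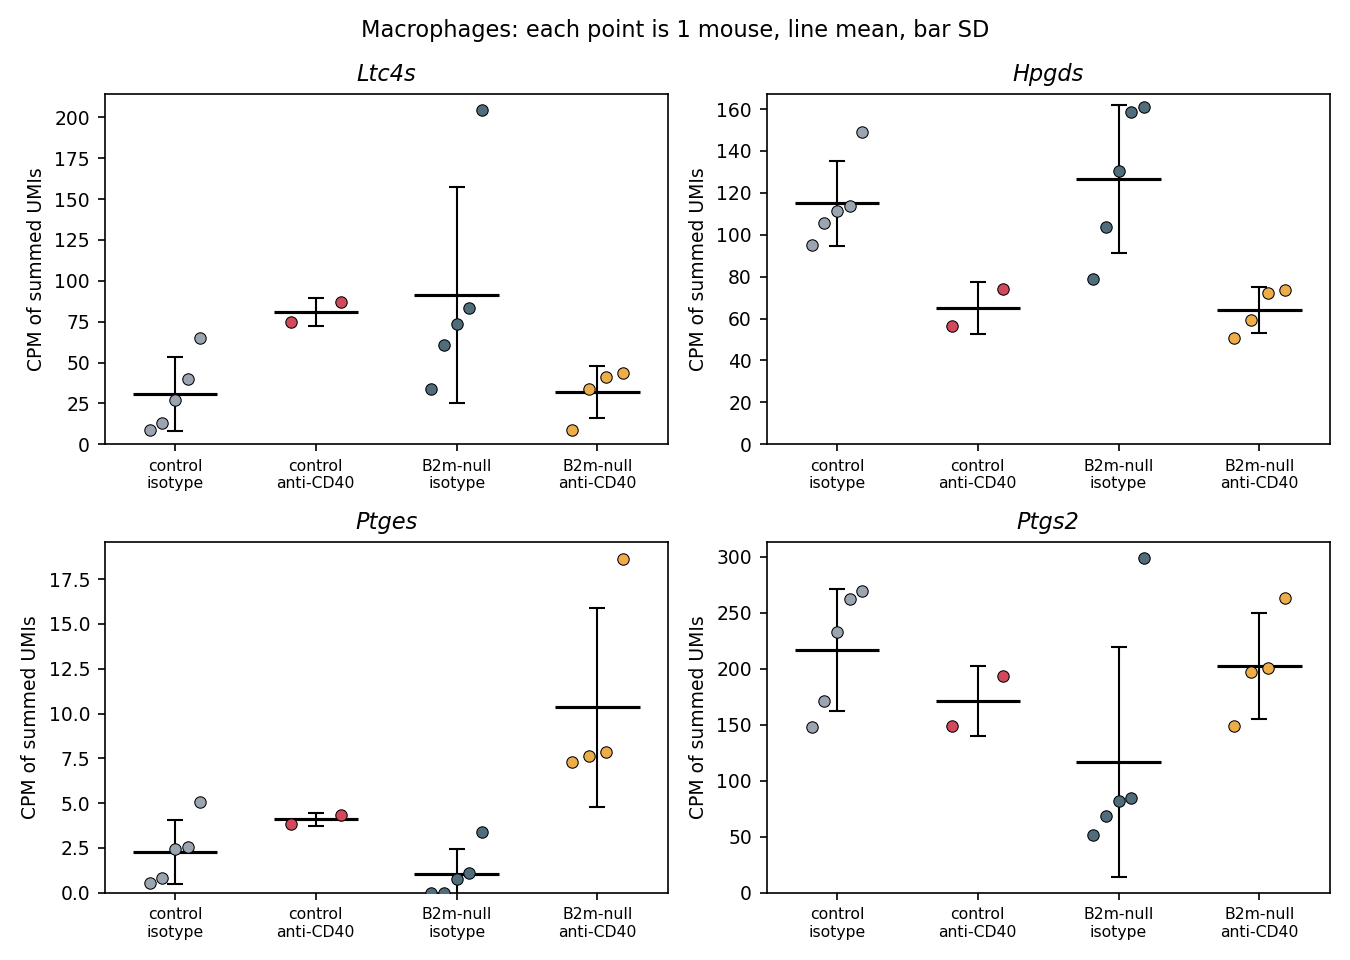
CPM of Ltc4s, Hpgds, Ptges and Ptgs2 in the macrophages of each mouse (points) with the group mean (line) and SD (bar), in the 4 groups. Hpgds lies between 50.8 and 73.9 CPM in the anti-CD40 mice and between 79.1 and 161 CPM in the isotype mice, and Ptges is highest in B2m-null tumours under anti-CD40.

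The rise of Ptges in B2m-null tumours was followed in cluster 5, the macrophage cluster with the highest level. There Ptges was at 0, 4.74, 6.49 and 10.8 CPM in 4 isotype mice and 22.8, 24.3, 33.96 and 59.7 CPM in 4 CD40 mice with B2m-null tumours, and no isotype mouse reached a CD40 mouse (log2 fold change 2.42, SE 0.39, adjusted p = 2.97e-04). This held in all 15 alternatives run for cluster 5, with log2 fold changes of 1.93 to 3.07. It was at 2.12, 5.199, 9.303, 17.00 and 18.6 CPM in 5 isotype mice and 14.5 and 23.7 CPM in 2 CD40 mice with control tumours, where 2 isotype mice lay above the lower CD40 mouse. Cluster 5 took 16.97% to 30.92% of the macrophages of B2m-null CD40 mice and 3.53% to 33.18% of those of B2m-null isotype mice. Ptges also appeared in cluster 2, where it was at 0 in every isotype mouse, at 0.2598 and 1.46 CPM in the control CD40 mice and at 2.08, 2.39, 4.04 and 11.8 CPM in the B2m-null CD40 mice. It was too low there to be tested. Fibroblast genes, whose cells had the highest Ptges, summed to 8.73 to 44.2 CPM in macrophages of B2m-null isotype mice and 10.07 to 31.6 CPM in B2m-null CD40 mice, so their ranges overlap.

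Of the 7 members tested in cluster 5 (15 mice, 4718 cells), 2 passed in B2m-null tumours under anti-CD40, against 15.6% of 8821 genes. The other was Lta4h, at 22.7, 33.2, 35.3 and 39.9 CPM in 4 isotype mice and 18.6, 20.9, 21.3 and 21.98 CPM in 4 CD40 mice with B2m-null tumours (log2 fold change -0.58, SE 0.20, adjusted p = 0.0483). That call was lost in 9 of 15 alternatives (-0.70 to -0.21, adjusted p = 0.05099 to 0.784). For Lta4h these were the fits without B2m-null CD40 pool 1 or 2, B2m-null isotype pool 2, control CD40 mouse 1 or 2 or control CD40 lane 2 and the fits with DESeq2, RLE scaling or the replicate block. Under the replicate block Lta4h was at -0.59, adjusted p = 0.0566. In control tumours 1 of the 7 passed, against 6.03% of genes, and for the difference between the CD40 effects 1 passed, against 1.72%. That gene was Ltc4s both times, described next.

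The difference between anti-CD40 and isotype antibody in Ltc4s, leukotriene C4 synthase, was not the same in the 2 tumour types. In macrophages Ltc4s was at 8.94, 13.2, 26.96, 39.97 and 64.9 CPM in 5 isotype mice and 74.7 and 87.1 CPM in 2 CD40 mice with control tumours, where all CD40 mice lay above all isotype mice. It was at 33.7, 60.7, 73.8, 83.1 and 205 CPM in 5 isotype mice and 8.995, 33.9, 41.00 and 43.6 CPM in 4 CD40 mice with B2m-null tumours, where all CD40 mice lay below the 4 highest isotype mice and 3 of them above the lowest. Neither change passed on its own (log2 fold change 1.54, SE 0.56, adjusted p = 0.0568, and log2 fold change -1.03, SE 0.52, adjusted p = 0.1397). The difference between the 2 effects passed (log2 fold change -2.57, SE 0.77, adjusted p = 0.0313). It was the 1 member of 9 to do so, against 16.0% of genes. Between the tumour types, 0 of 9 members passed under isotype antibody by edgeR's quasi-likelihood test, against 8.57% of genes, with 4 at an unadjusted p under 0.05 and 1 passing by DESeq2. Under anti-CD40, 0 passed, against 12.0%, with 2 at an unadjusted p under 0.05 and 0 by DESeq2. Shares of all genes at an unadjusted p or by DESeq2 are not given, here or below. Such counts are therefore not read as results about the genes.

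Under isotype antibody, Ltc4s (1.24, adjusted p = 0.119), Alox5 (1.00, adjusted p = 0.102) and Ptgs1 (1.03, adjusted p = 0.0561) had positive log2 fold changes in B2m-null against control tumours. These are the members that mark cluster 2. The highest values of Alox5, Ltc4s and Ptgs1 belong to 1 mouse with 170 macrophages, of which 74.12% were in cluster 2. Its Ptgs1 value was 30.25 CPM, from 13 UMIs. The Ltc4s difference of CD40 effects was lost in 5 of 23 alternatives (-2.63 to -2.24, adjusted p = 0.0694 to 0.119). For Ltc4s these were the fits without B2m-null CD40 pool 1, B2m-null isotype pool 1, control CD40 mouse 1 or 2 or control isotype pool 1. The rise in control tumours alone passed in 14 of 24 alternatives, with log2 fold changes of 1.24 to 2.29.

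Because Ltc4s is concentrated in cluster 2, the share of that cluster and the level inside it were taken apart. Cluster 2 held 67.2% to 95.5% of the Ltc4s UMIs of macrophages in every mouse, whatever the group. Its share of macrophages was 5.28% to 19.79% in isotype and 22.73% to 23.60% in CD40 mice with control tumours, which did not overlap. With B2m-null tumours the share was 14.50% to 74.12% in isotype and 9.68% to 36.24% in CD40 mice, which overlap. The Lyve1 Cd163 marker list summed over all macrophages to 1179 to 2511 CPM in isotype and 1509 to 2107 CPM in CD40 mice with control tumours, which overlap. With B2m-null tumours it summed to 2817 to 6321 CPM in isotype and 725 to 2111 CPM in CD40 mice, without overlap, and its part in the Ltc4s levels of all macrophages was not tested. Inside cluster 2, Ltc4s was at 133, 165, 220.4, 303 and 428 CPM in 5 isotype mice and 359 and 491 CPM in 2 CD40 mice with control tumours, a rise that passed although 1 isotype mouse lay above the lower CD40 mouse (log2 fold change 0.88, SE 0.29, adjusted p = 0.0462). It was at 207, 222, 272, 362 and 366 CPM in 5 isotype mice and 125, 128, 157 and 206 CPM in 4 CD40 mice with B2m-null tumours, with the CD40 mice all below the isotype mice, which did not pass (log2 fold change -0.70, SE 0.26, adjusted p = 0.0674). Under anti-CD40 the level was lower in B2m-null than in control tumours (log2 fold change -1.45, SE 0.30, adjusted p = 0.00814), and the difference between the CD40 effects passed (log2 fold change -1.58, SE 0.39, adjusted p = 0.0217). Under isotype antibody no difference between tumour types passed (log2 fold change 0.12, SE 0.24, adjusted p = 0.965). The part of a change in makeup inside cluster 2 in these levels was not tested.

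Macrophages outside cluster 2 had low Ltc4s. With control tumours it was at 2.60 to 12.15 CPM in isotype and 14.65 to 24.34 CPM in CD40 mice, without overlap, and with B2m-null tumours at 7.69 to 33.03 CPM and 2.41 to 10.95 CPM, with overlap. In a fit of these macrophages, added after seeing the data, Ltc4s rose under anti-CD40 in control tumours (1.81, adjusted p = 0.00936) and fell in B2m-null tumours (-1.32, adjusted p = 0.0229). In cluster 5 alone, Ltc4s was at 3.22, 3.72, 6.19, 6.35 and 11.9 CPM in 5 isotype mice and 18.1 and 21.5 CPM in 2 CD40 mice with control tumours. It was at 3.93, 12.97, 14.1 and 19.6 CPM in 4 isotype mice and 5.07, 5.96, 6.37 and 9.99 CPM in 4 CD40 mice with B2m-null tumours. The rise in control tumours passed (log2 fold change 1.91, SE 0.55, adjusted p = 0.0392), as did the difference of the CD40 effects (log2 fold change -2.78, SE 0.68, adjusted p = 0.0349), while the change in B2m-null tumours did not (adjusted p = 0.1603). T and NK cells, at 0 to 2.74 CPM, lay below the cluster 5 values, but the range of B cells, up to 23.8 CPM, covers them.

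Of the 8 members tested in cluster 2 (16 mice, 5451 cells), 3 passed in control tumours under anti-CD40, against 14.0% of 8288 genes, and 2 in B2m-null tumours, against 15.6%. Between tumour types, 0 passed under isotype antibody by edgeR's test, against 0.217% (0 at an unadjusted p under 0.05, 0 by DESeq2, which gave no adjusted p for 5 of the 8), and 1 under anti-CD40, against 4.57%. For the difference of the CD40 effects 1 passed, against 3.91%. The third gene in control tumours was Alox5, whose product supplies Ltc4s with substrate, and it went the other way from Ltc4s. Alox5 was at 27.5, 28.3, 37.5, 49.4 and 52.1 CPM in 5 isotype mice and 18.5 and 24.8 CPM in 2 CD40 mice with control tumours (log2 fold change -0.84, SE 0.28, adjusted p = 0.0495). The second gene in B2m-null tumours was Ptgs2, at 16.9, 35.6, 45.98, 59.1 and 81.9 CPM in 5 isotype mice and 73.2, 84.6, 94.7 and 127 CPM in 4 CD40 mice with B2m-null tumours, where 1 isotype mouse lay above the lowest CD40 mouse (log2 fold change 1.04, SE 0.27, adjusted p = 0.0115).

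These calls rest on few mice. The Ltc4s rise inside cluster 2 was lost in 7 of 14 alternatives (0.52 to 1.09, adjusted p = 0.06402 to 0.425). For Ltc4s these were the fits without B2m-null isotype pool 1, control CD40 mouse 1 or 2, control CD40 lane 2 or control isotype pool 1 and the fits with DESeq2 or scaling by UMI totals. Its difference between tumour types under anti-CD40 was lost in 2 of 14 alternatives, without B2m-null CD40 pool 1 or control CD40 mouse 2 (-1.24 to -1.20, adjusted p = 0.0502 to 0.255). The difference of its CD40 effects was lost in 4 of 13 alternatives (-1.59 to -1.22, adjusted p = 0.0614 to 0.182). For Ltc4s these were the fits without B2m-null CD40 pool 1, B2m-null isotype pool 1, control CD40 mouse 2 or control isotype pool 1. The lower Ltc4s under anti-CD40 in B2m-null tumours, which did not pass, passed with the replicate block (-0.78, adjusted p = 0.0235), with scaling by UMI totals (-0.87, adjusted p = 0.0174), with no filter on low counts (-0.69, adjusted p = 4.61e-05) and without control isotype pool 1 (-0.70, adjusted p = 0.0373) or pool 2 (-0.70, adjusted p = 0.0392). In cluster 5 the Ltc4s rise in control tumours was lost in 7 of 13 alternatives (1.55 to 2.08, adjusted p = 0.0554 to 0.351). For Ltc4s these were the fits without B2m-null CD40 pool 2, B2m-null isotype pool 1, control CD40 mouse 1 or 2, control CD40 lane 1 or 2 or control isotype pool 1. DESeq2 gave no adjusted p for that rise. The difference of the CD40 effects there was lost in 7 of 13 alternatives (-2.90 to -2.43, adjusted p = 0.0526 to 0.206). For Ltc4s these were the fits without B2m-null CD40 pool 1 or 2, B2m-null isotype pool 1, control CD40 mouse 1 or 2, control CD40 lane 1 or control isotype pool 1. The Alox5 call was lost in 7 of 14 alternatives (-0.99 to -0.58, adjusted p = 0.0814 to 0.486). For Alox5 these were the fits without control CD40 mouse 1 or 2, control CD40 lane 1 or 2 or control isotype pool 1 or 2 and the fits with DESeq2. The Ptgs2 call was lost in 2 of 15 alternatives, without B2m-null CD40 pool 2 or B2m-null isotype pool 1 (0.77 to 1.14, adjusted p = 0.0589 to 0.09995).

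**Figure D3:**
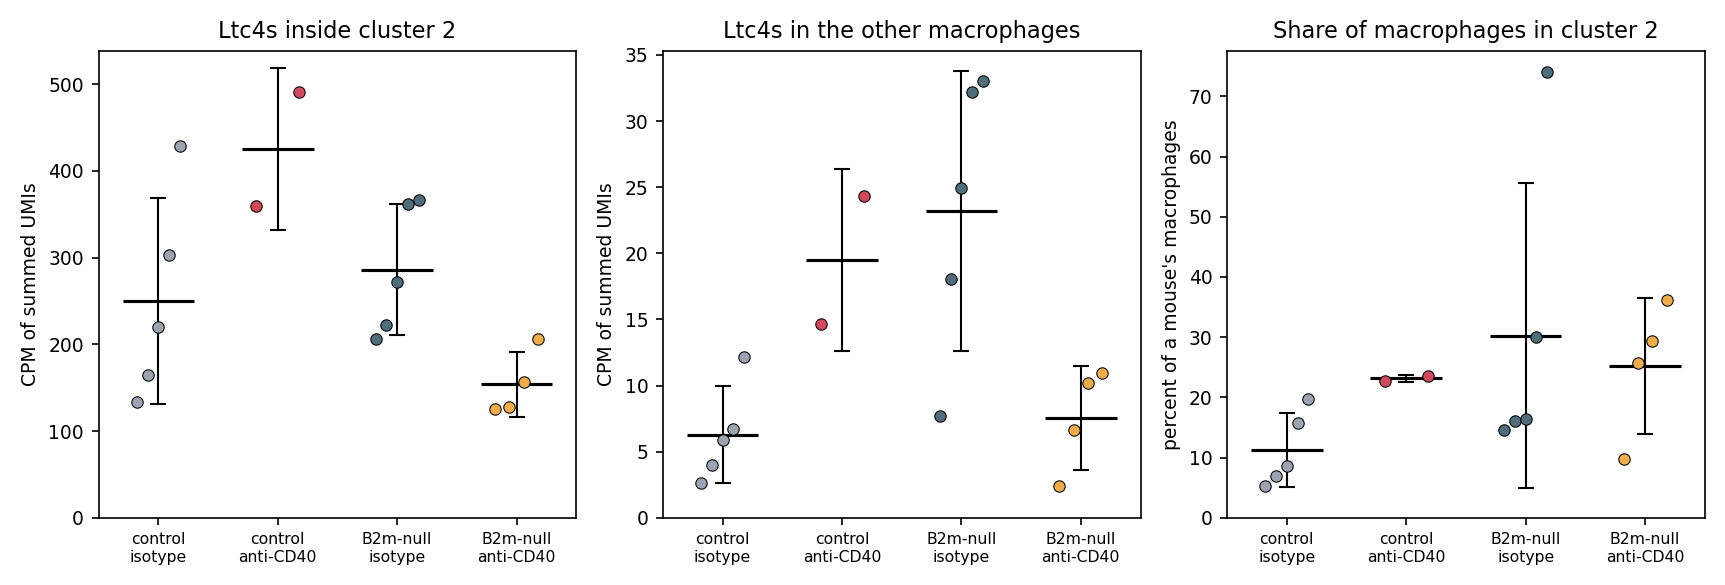
Ltc4s in macrophages by mouse (points; line, mean; bar, SD) and group: CPM inside cluster 2, CPM in all other macrophages, and the share of macrophages that fall in cluster 2, in percent. Inside cluster 2 the 2 control CD40 mice are at 359 and 491 CPM and the 4 B2m-null CD40 mice between 125 and 206 CPM, while the share of cluster 2 overlaps between these groups.

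In monocytes, Ltc4s was higher under anti-CD40 in control tumours, and Ptges in both tumour types. The monocytes of isotype mice were mostly cluster 0 and those of CD40 mice mostly cluster 8 in B2m-null tumours and to a lesser degree in control tumours. With control tumours, clusters 0 and 8 held 1448 and 223 cells of isotype mice and 324 and 557 cells of CD40 mice. With B2m-null tumours they held 723 and 39 cells of isotype mice and 318 and 2002 cells of CD40 mice. Ltc4s was at 0, 0, 2.599, 3.26 and 3.47 CPM in 5 isotype mice and 55.3 and 142 CPM in 2 CD40 mice with control tumours (log2 fold change 5.46, SE 0.63, adjusted p = 1.88e-06). As only 8 UMIs stood against 206, the ratio of the summed counts was 36.9, with an interval of 18.4 to 86.7 for counting error. Ltc4s was at 0, 1.98, 13.2 and 18.6 CPM in 4 isotype mice and 6.24, 7.26, 18.95 and 27.00 CPM in 4 CD40 mice with B2m-null tumours, where the groups overlap and the test did not pass (log2 fold change 1.01, adjusted p = 0.295). Under anti-CD40, Ltc4s was lower in B2m-null than in control tumours (log2 fold change -2.84, SE 0.42, adjusted p = 2.81e-04), and the difference of the CD40 effects passed (log2 fold change -4.45, SE 1.23, adjusted p = 0.0289).

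Ptges, the prostaglandin E2 synthase, was at or near 0 in monocytes under isotype antibody. It was at 0, 0, 0, 0 and 1.27 CPM in 5 isotype mice and 5.12 and 23.1 CPM in 2 CD40 mice with control tumours. It was at 0, 0, 0 and 0.659 CPM in 4 isotype mice and 8.04, 10.4, 23.3 and 55.7 CPM in 4 CD40 mice with B2m-null tumours. Every CD40 mouse lay above every isotype mouse, in control tumours (log2 fold change 4.98, SE 1.55, adjusted p = 0.0314) and in B2m-null tumours (log2 fold change 5.92, SE 1.21, adjusted p = 5.66e-04). Each isotype group held 1 UMI in all, against 26 and 417, so the ratios of summed counts were 37.3 (counting interval 6.13 to 1529) and 83.8 (14.95 to 3317). COX-2 also rose in B2m-null tumours: Ptgs2 was at 356, 367, 433 and 643 CPM in 4 isotype mice and 433, 452, 550.4 and 683 CPM in 4 CD40 mice with B2m-null tumours, with overlap (log2 fold change 0.47, SE 0.17, adjusted p = 0.02995), and in control tumours its adjusted p was 0.539.

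Of the leukotriene B4 genes, Lta4h was highest in monocytes of B2m-null isotype mice. It was at 22.1, 22.8, 23.3, 25.4 and 26.1 CPM in 5 isotype mice and 27.1 and 28.9 CPM in 2 CD40 mice with control tumours. It was at 39.6, 44.4, 54.01 and 65.9 CPM in 4 isotype mice and 22.7, 26.99, 27.9 and 27.9 CPM in 4 CD40 mice with B2m-null tumours. The B2m-null isotype mice lay above all others, so that Lta4h was higher than in control isotype mice (log2 fold change 1.18, SE 0.18, adjusted p = 0.00123), lower under anti-CD40 in B2m-null tumours (log2 fold change -0.92, SE 0.17, adjusted p = 1.58e-04), and different in its CD40 effect (log2 fold change -1.23, SE 0.27, adjusted p = 0.00779). The smallest of the B2m-null isotype monocyte libraries held 75796 UMIs in all, so that its Lta4h level rests on few UMIs. The receptor Ltb4r1 was at 152, 168, 169, 176 and 211 CPM in 5 isotype mice and 90.6 and 124 CPM in 2 CD40 mice with control tumours, without overlap. It was at 126, 145, 178 and 189 CPM in 4 isotype mice and 60.5, 78.6, 119 and 128 CPM in 4 CD40 mice with B2m-null tumours. It was lower under anti-CD40 in B2m-null tumours (log2 fold change -0.61, SE 0.20, adjusted p = 0.0207), with overlap by 1 mouse, and in control tumours it did not pass (log2 fold change -0.66, adjusted p = 0.0528).

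Of the 8 members tested in monocytes (15 mice, 5617 cells; Alox5 was too low), 2 passed in control tumours, against 15.0% of 8002 genes, and 4 in B2m-null tumours, against 33.8%. Between tumour types, 1 passed under isotype antibody, against 1.12%, and 1 under anti-CD40, against 8.72%, and for the difference of the CD40 effects 2 passed, against 7.24%. The median log2 fold change of the members was -0.089 in control and 0.23 in B2m-null tumours, against 0.00075 and 0.0040 over all genes. The members that passed in no comparison were Alox5ap, at 578, 711, 716, 772 and 789 CPM in 5 isotype mice and 444 and 604 CPM in 2 CD40 mice with control tumours (log2 fold change -0.36, adjusted p = 0.129), Ptgs1 and Hpgds. Hpgds was at 6.95, 10.4, 12.7, 16.5 and 19.5 CPM in 5 isotype mice and 2.89 and 15.9 CPM in 2 CD40 mice with control tumours. Ptgs1 was at 1.27, 1.63, 2.12, 2.61 and 12.99 CPM in 5 isotype mice and 1.54 and 2.89 CPM in 2 CD40 mice with control tumours, and in both genes these groups overlap.

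**Figure D4:**
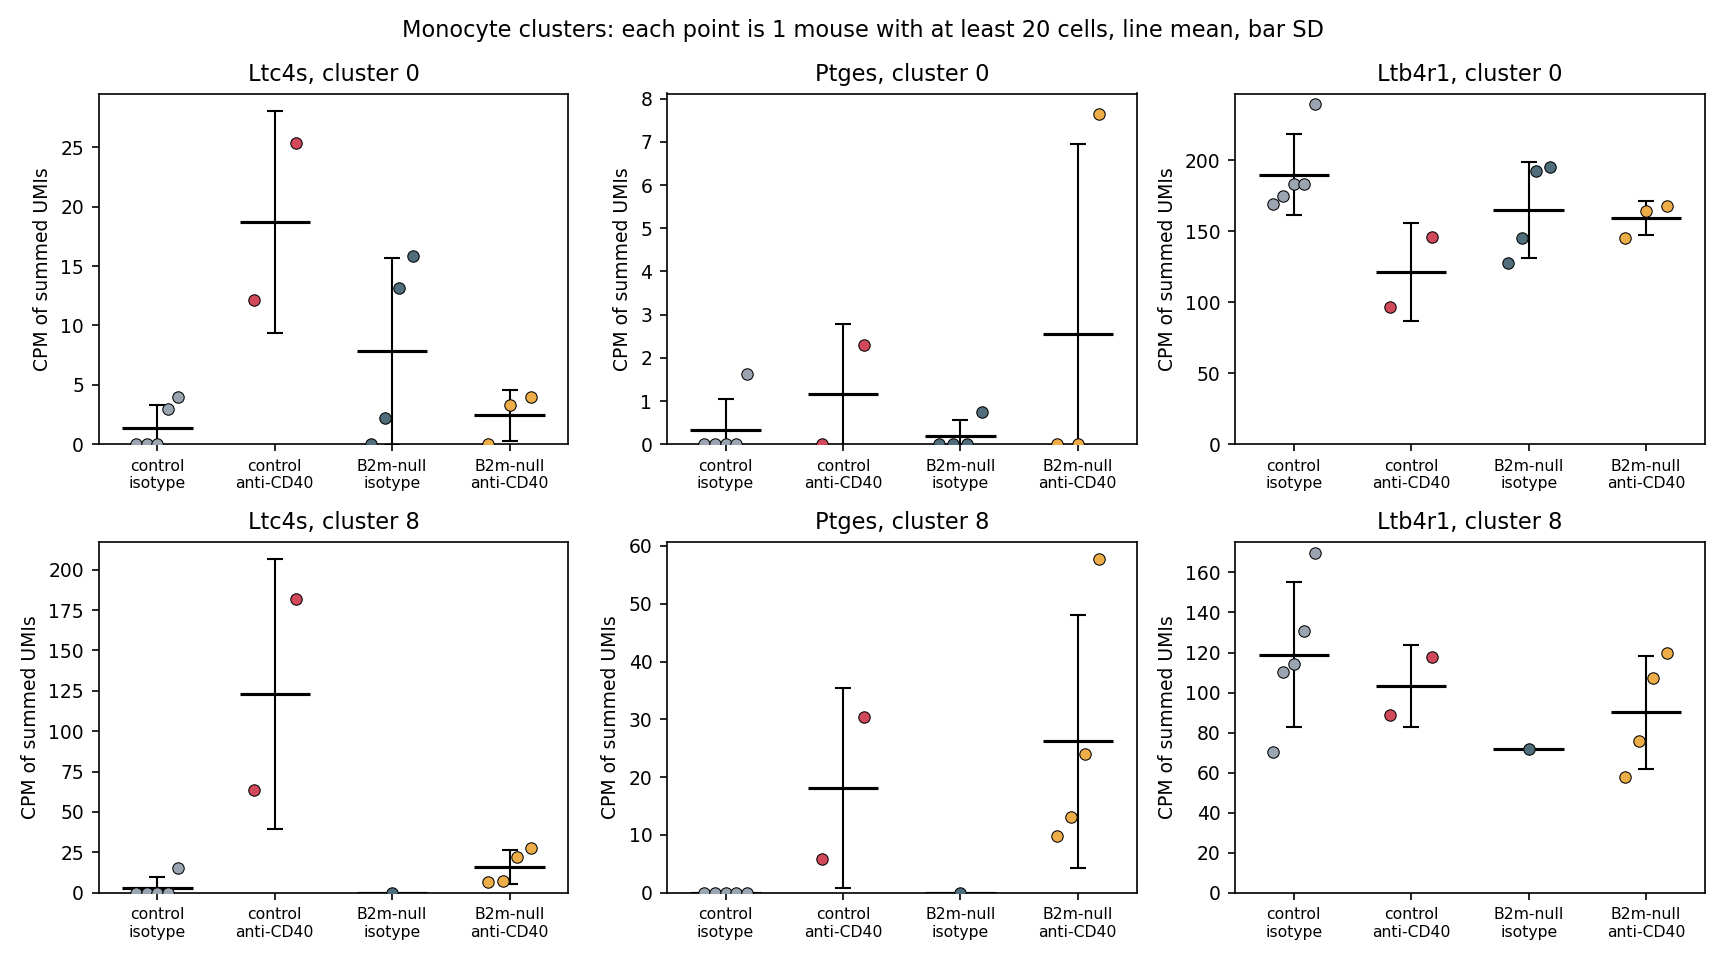
CPM of Ltc4s, Ptges and Ltb4r1 in monocyte clusters 0 and 8 by mouse (points; line, mean; bar, SD) in the 4 groups. Within cluster 8 Ltc4s and Ptges are above 0 in every CD40 mouse, and Ltc4s is at 63.9 and 182 CPM in the control CD40 mice against 6.83 to 27.9 CPM in the B2m-null CD40 mice.

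The same comparisons within each monocyte cluster were added after seeing the data. In cluster 8, Ltc4s was at 0, 0, 0, 0 and 15.4 CPM in 5 isotype mice and 63.9 and 182 CPM in 2 CD40 mice with control tumours (log2 fold change 5.26, SE 0.96, adjusted p = 0.00122), resting on 2 UMIs in control isotype mice against 193, a ratio of 31.3 with a counting interval of 8.54 to 260.1. In B2m-null CD40 mice it was at 6.83, 7.57, 22.3 and 27.9 CPM, lower than in control CD40 mice (log2 fold change -3.03, SE 0.40, adjusted p = 9.39e-05). Each was the 1 member of 7 tested in cluster 8 (12 mice, 2814 cells) to pass, against 3.80% and 4.79% of 6583 genes. Without control isotype pool 1 the rise in control tumours no longer passed (3.79, adjusted p = 0.235), without control isotype pool 2 it was 10.14, and the difference under anti-CD40 passed in all 13 alternatives that gave an adjusted p. DESeq2 gave none for Ltc4s in either comparison. Ptges in cluster 8 was at 0 CPM in 5 isotype mice and 5.92 and 30.4 CPM in 2 CD40 mice with control tumours, and at 9.74, 13.1, 24.04 and 57.8 CPM in 4 CD40 mice with B2m-null tumours. Only 1 B2m-null isotype mouse had 20 cells of cluster 8, at 0 CPM for both genes.

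In cluster 0, where 4 members could be tested, Lta4h was again higher in B2m-null than in control tumours under isotype antibody, at 39.6, 45.1, 52.4 and 66.9 against 23.3, 23.5, 24.8, 27.8 and 29.3 CPM (log2 fold change 1.06, SE 0.21, adjusted p = 0.00945). The smallest of these B2m-null isotype libraries also held 75796 UMIs. Lta4h was the 1 member to pass, against 1.08% of 6770 genes. The call was lost in 2 of 14 alternatives, without B2m-null isotype pool 2 or control isotype pool 1 (0.65 to 1.17, adjusted p = 0.17 to 0.653). DESeq2 gave no adjusted p for it. In control tumours under anti-CD40, 1 member passed, against 7.05%: Ptgs2, at 518, 553, 629, 674 and 779 CPM in 5 isotype mice and 219 and 474 CPM in 2 CD40 mice with control tumours, fell (log2 fold change -0.93, SE 0.27, adjusted p = 0.0321). That call was lost in 3 of 14 alternatives, without control CD40 mouse 2, control CD40 lane 2 or control isotype pool 1 (-0.81 to -0.41, adjusted p = 0.0672 to 0.7195). Ltb4r1 in cluster 0 was at 128, 145, 192 and 195 CPM in 4 isotype mice and 145, 164 and 168 CPM in 3 CD40 mice with B2m-null tumours, a log2 fold change of -0.062, against -0.61 over both clusters.

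The monocyte results also depend on how the class is drawn and on single pools. With clustering at resolution 2 the monocyte class is 1 cluster of 5896 cells led by Ccl24 and Vcan, the cells led by Ly6i, Fpr2 and Nos2 are unnamed and outside it, and 586 non-classical monocytes stand apart. In that class Ltc4s in control tumours (2.16, adjusted p = 0.119), Lta4h under isotype antibody (0.71, adjusted p = 0.0847) and Ptgs2 (0.11, adjusted p = 0.759) no longer pass, and Ltb4r1 turns to 0.34. Under anti-CD40, the lower Ltc4s in B2m-null than in control tumours is then lost (-1.96, adjusted p = 0.2404), as it is under DESeq2 (-2.67, adjusted p = 0.0501). The fall of Lta4h in B2m-null tumours (-0.15, adjusted p = 0.794) and the difference of its CD40 effects (-0.0094, adjusted p = 0.999) are then close to 0. The higher Lta4h in B2m-null tumours under isotype antibody was lost in 7 of 21 alternatives (0.69 to 1.29, adjusted p = 0.0541 to 0.631). For Lta4h these were the fits without B2m-null isotype pool 2 or control isotype pool 1 and the fits with cells thinned to 1000 UMIs, clustering at resolution 2, lanes as units (also with unhashed cells added) or a stricter cell filter. Its fall under anti-CD40 was lost in 3 of 22 alternatives, without B2m-null isotype pool 2, or with cells thinned to 1000 UMIs or clustering at resolution 2 (-0.75 to -0.15, adjusted p = 0.191 to 0.794). The difference of the Lta4h CD40 effects was lost in 7 of 20 alternatives (-1.23 to -0.0094, adjusted p = 0.0801 to 0.999). For Lta4h these were the fits without B2m-null isotype pool 2 or control CD40 mouse 2 and the fits with cells thinned to 1000 UMIs, clustering at resolution 2, lanes as units (also with unhashed cells added) or a stricter cell filter. Ltb4r1 was lost in 6 of 22 alternatives (-0.59 to 0.34, adjusted p = 0.07296 to 0.884). For Ltb4r1 these were the fits without B2m-null CD40 pool 1 or B2m-null isotype pool 2 and the fits with DESeq2, clustering at resolution 2 or lanes as units (also with unhashed cells added). Ptgs2 was lost in 7 of 22 alternatives (0.11 to 0.40, adjusted p = 0.107 to 0.759). For Ptgs2 these were the fits without B2m-null CD40 pool 1 or B2m-null isotype pool 2 and the fits with cells thinned to 1000 UMIs, clustering at resolution 2, lanes as units (also with unhashed cells added) or scaling by UMI totals. Ptges in B2m-null tumours was lost in 1 of 18 alternatives, without B2m-null isotype pool 2 (8.36, adjusted p = 0.296). In control tumours Ptges was lost in 9 of 18 alternatives (3.09 to 6.96, adjusted p = 0.0511 to 0.4802). For Ptges these were the fits without B2m-null isotype pool 1 or 2, control CD40 mouse 1, control CD40 lane 1 or control isotype pool 1 or 2 and the fits with lanes as units (also with unhashed cells added) or a stricter cell filter. The Ltc4s difference of CD40 effects was lost in 9 of 20 alternatives (-4.77 to -2.15, adjusted p = 0.0549 to 0.617). For Ltc4s these were the fits without B2m-null isotype pool 1 or 2, control CD40 mouse 1, control CD40 lane 2 or control isotype pool 1 or 2 and the fits with cells thinned to 1000 UMIs, clustering at resolution 2 or a stricter cell filter.

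Genes of other cells in the monocyte class moved with some of these results. Macrophage markers summed in monocytes to 3733 to 4471 CPM in isotype and 4646 to 6369 CPM in CD40 mice with control tumours, and to 2770.0 to 4740.0 CPM and 4592 to 7385 CPM with B2m-null tumours. The Lyve1 Cd163 list marks cluster 2, the cluster with the highest median of Ltc4s at resolution 1. At resolution 2 Ltc4s was not among the 10 leading genes of the cluster led by Cd209f, Lyve1 and Cd163. In monocytes this list summed to 425 to 752 CPM in isotype and 549 to 563 CPM in CD40 mice with control tumours, with 6 of its 7 genes detected in the control CD40 mice and Cd163 at 0. With B2m-null tumours it summed to 634 to 1029 CPM in isotype and 329 to 484 CPM in CD40 mice, so that under anti-CD40 it was lower in B2m-null than in control tumours without overlap. The fibroblast list, which marks the cells with most Ptges, summed to 6.35 to 27.97 CPM in isotype and 27.47 to 30.72 CPM in CD40 mice with control tumours, where Lum was at 0 in both groups. With B2m-null tumours it summed to 10.14 to 39.58 CPM and 18.73 to 38.17 CPM. The neutrophil list, from the class with the highest Ptgs2, summed to 57.1 to 86.8 CPM in isotype and 88.2 to 90.6 CPM in CD40 mice with control tumours, and to 51.8 to 96.8 and 73.5 to 256.0 CPM with B2m-null tumours. T and NK cell genes summed to 11.4 to 75.01 and 27.5 to 148.0 CPM with control tumours, and to 0 to 15.8 and 44.96 to 66.5 CPM with B2m-null tumours, the latter without overlap. The part of these lists in the monocyte results was not tested.

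Conventional dendritic cells, here type 1, type 2 and mature dendritic cells joined, showed no member past the threshold. By edgeR's quasi-likelihood test over 16 mice (4753 cells), 0 of 7 members passed in control tumours under anti-CD40, against 3.25% of 9346 genes (1 at an unadjusted p under 0.05, 0 by DESeq2). In B2m-null tumours 0 passed, against 10.3% (2 unadjusted, 2 by DESeq2). Between tumour types 0 passed under isotype antibody, against 2.18% (0 unadjusted, 0 by DESeq2), and 0 under anti-CD40, against 1.14% (2 unadjusted, 0 by DESeq2). The shares of all genes are those of edgeR's adjusted p, and none is given for the unadjusted and DESeq2 counts. DESeq2 gave no adjusted p for 2 of the 7 members in each anti-CD40 comparison and for 3 in each comparison of tumour types. The closest was Ltc4s, at 5.28, 6.11, 6.54, 9.29 and 10.7 CPM in 5 isotype mice and 6.33 and 28.3 CPM in 2 CD40 mice with control tumours (log2 fold change 1.51, SE 0.42, adjusted p = 0.0504). Next was Ptgs2, at 101, 106, 112, 121 and 128 CPM in 5 isotype mice and 62.8, 128, 338 and 377 CPM in 4 CD40 mice with B2m-null tumours (log2 fold change 0.94, SE 0.30, adjusted p = 0.0528). Hpgds was at 9.095, 19.8, 28.7, 39.2 and 52.1 CPM in 5 isotype mice and 0, 3.42, 5.09 and 7.41 CPM in 4 CD40 mice with B2m-null tumours, where every CD40 mouse lay below every isotype mouse (log2 fold change -2.16, SE 0.80, adjusted p = 0.0904). In the dendritic cells of these mice macrophage markers summed to 1430.0 to 4689 CPM in isotype and 482 to 1779 CPM in CD40 mice, which overlap, and the Lyve1 Cd163 list to 264 to 705 and 76.4 to 316 CPM, which overlap. T and NK cell genes there summed to 452 to 833 CPM in isotype and 992 to 1294 CPM in CD40 mice, without overlap. The part of these lists in the Hpgds values was not tested.

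Neutrophils, which had the highest Ptgs2 among classes with 20 cells in a mouse, were few. In 11 mice (826 cells), 0 of 5 members passed edgeR's quasi-likelihood test in control tumours under anti-CD40, against 0.336% of 4469 genes (1 at an unadjusted p under 0.05, 0 by DESeq2). In B2m-null tumours 0 passed, against 0.291%, between tumour types 0 under isotype antibody, against 0%, and 0 under anti-CD40, against 0.0448% (0 unadjusted and 0 by DESeq2 in each of these). DESeq2 gave no adjusted p for 2 of the 5 members, other than between tumour types under isotype antibody. Ptgs2 was at 1962, 2536 and 2838 CPM in 3 isotype mice and 542 and 1174 CPM in 2 CD40 mice with control tumours, without overlap (log2 fold change -1.42, SE 0.42, adjusted p = 0.162). It was at 1021, 1659 and 2923 CPM in 3 isotype mice and 1126, 1247 and 1362 CPM in 3 CD40 mice with B2m-null tumours, with overlap. Over the same mice, macrophage markers in the neutrophil class summed to 4276 to 6455 CPM in control isotype and 699 to 4559 in control CD40 mice, and neutrophil markers to 14747 to 24567 and 54048 to 85330.0 CPM. T and NK cell genes in the same class summed to 62.9 to 127.5 CPM in control isotype and 1565 to 1605 CPM in control CD40 mice, without overlap. The part of these lists in the Ptgs2 values was not tested. Ltb4r1 in neutrophils was at 39.3, 71.7 and 168 CPM in 3 isotype mice and 48.2 and 149 CPM in 2 CD40 mice with control tumours. It was at 38.9, 88.97 and 106 CPM in 3 isotype mice and 93.3, 118 and 145 CPM in 3 CD40 mice with B2m-null tumours, with overlap in both tumour types.

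Besides the members, 53 further genes of arachidonate release, leukotriene and prostanoid handling and their receptors were followed. In macrophages 32 of them could be tested, and under anti-CD40 7 rose and 1 fell in control tumours (median log2 fold change 0.20 over the 32), and 5 rose and 6 fell in B2m-null tumours (median 0.039). These 8 and 11 of 32 are shares near those of all genes, 22.6% and 31.7%. The secreted phospholipase Pla2g2d rose in both (log2 fold change 3.01, SE 0.93, adjusted p = 0.0284, and log2 fold change 3.06, SE 0.69, adjusted p = 0.003098), as did Fpr2, a receptor for lipoxins and formyl peptides (1.11, adjusted p = 0.00312, and 2.11, adjusted p = 1.40e-05). Pla2g2d was near 0 in control isotype mice, at 0 to 3.975 CPM (median 0.106). Pla2g7, the hydrolase of platelet-activating factor, ranged over 144 to 242 CPM in isotype and 392 to 458 CPM in CD40 mice with control tumours, and 133 to 175 CPM and 171 to 333 CPM with B2m-null tumours. It rose in control (log2 fold change 1.29, SE 0.21, adjusted p = 4.14e-04) and in B2m-null tumours (log2 fold change 0.91, SE 0.18, adjusted p = 0.00131). In control tumours the prostacyclin receptor Ptgir (1.32, adjusted p = 0.00939), the prostaglandin E2 receptor Ptger2 (1.15, adjusted p = 0.00537), Mgst1 (1.38, adjusted p = 2.83e-04) and Cyp4f16 (0.47, adjusted p = 0.0307) also rose, and the cysteinyl leukotriene receptor Cysltr1 fell (-0.54, adjusted p = 0.0211), as it did in B2m-null tumours (-0.67, adjusted p = 0.00121). Of these control tumour calls, that of Pla2g2d was lost in 7 of 24 alternatives (1.53 to 3.12, adjusted p = 0.0508 to 0.306). For Pla2g2d these were the fits without control CD40 mouse 1 or 2, control CD40 lane 1 or control isotype pool 2 and the fits with DESeq2, cells thinned to 1000 UMIs or a stricter cell filter. Ptgir was lost in 6 of 23 alternatives (1.02 to 1.19, adjusted p = 0.0528 to 0.0992). For Ptgir these were the fits without control CD40 mouse 1, control CD40 lane 1 or control isotype pool 2 and the fits with lanes as units (also with unhashed cells added) or a stricter cell filter. Ptger2 was lost in 4 of 24 alternatives, without control CD40 mouse 1 or control isotype pool 1, or with lanes as units (also with unhashed cells added) (0.78 to 0.95, adjusted p = 0.0586 to 0.0904). Fpr2 was lost in 1 of 24 alternatives, without control CD40 mouse 2 (0.81, adjusted p = 0.1099). Cyp4f16 was lost in 11 of 24 alternatives (0.27 to 0.53, adjusted p = 0.0978 to 0.339). For Cyp4f16 these were the fits without control CD40 mouse 1 or 2, control CD40 lane 1 or control isotype pool 1 and the fits with cells thinned to 1000 UMIs, lanes as units (also with unhashed cells added), macrophages and monocytes joined (also with the unnamed cluster between them), the Lyve1 Cd163 cluster left out or scaling by UMI totals. Cysltr1 was lost in 8 of 24 alternatives (-0.58 to -0.35, adjusted p = 0.0521 to 0.165). For Cysltr1 these were the fits without control CD40 mouse 1 or 2, control CD40 lane 1 or control isotype pool 1 and the fits with clustering at resolution 2, lanes as units (also with unhashed cells added) or macrophages, monocytes and the unnamed cluster between them joined. In B2m-null tumours Pla2g2d was lost in 1 of 25 alternatives, with DESeq2 (2.66, adjusted p = 0.0944). Pla2g7 there was lost in 1 of 25 alternatives, without B2m-null CD40 pool 2 (0.56, adjusted p = 0.0562).

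In B2m-null tumours 3 of 9 tested genes of prostanoid synthesis and breakdown fell in macrophages, a share near the 31.7% of all genes called. Of 10 tested lipoxygenase and leukotriene handling genes 1 rose and 1 fell, and of 7 arachidonate release genes 3 rose and 1 fell. Hpgd, the dehydrogenase that inactivates prostaglandin E2, fell (log2 fold change -1.82, SE 0.44, adjusted p = 0.00463). The E2 synthase Ptges rose in the same class, summed over its clusters, and whether the same cells changed in both genes was not tested. Ggt5, which turns leukotriene C4 into D4, fell (log2 fold change -1.49, SE 0.44, adjusted p = 0.0164), and so did the phospholipase Pla2g4b (-0.98, adjusted p = 0.0381) and the lipocalin-type prostaglandin D2 synthase Ptgds (-0.77, adjusted p = 0.00878). Pla2g4b was low, at 0.442 to 1.21 CPM in macrophages of control isotype mice. Lpcat2, an enzyme of platelet-activating factor synthesis, rose (0.77, adjusted p = 0.0115). Ptgds is also among the leading genes of the melanoma cluster, and melanoma genes summed to 33.0 to 74.5 CPM in macrophages of B2m-null isotype mice against 16.7 to 24.4 CPM in B2m-null CD40 and 35.5 to 47.4 CPM in control CD40 mice, whose part was not tested. The calls of Hpgd and Fpr2 in B2m-null tumours and of Mgst1 and Pla2g7 in control tumours held in every alternative run for them. Ggt5 was lost in 4 of 25 alternatives (-1.23 to -0.72, adjusted p = 0.0668 to 0.2695). For Ggt5 these were the fits without B2m-null CD40 pool 1 or B2m-null isotype pool 1 and the fits with cells thinned to 1000 UMIs or a stricter cell filter. Pla2g4b was lost in 11 of 22 alternatives (-1.32 to -0.50, adjusted p = 0.0579 to 0.589). For Pla2g4b these were the fits without B2m-null CD40 pool 1 or 2, B2m-null isotype pool 2 or control CD40 lane 1 and the fits with DESeq2, lanes as units (also with unhashed cells added), macrophages and monocytes joined (also with the unnamed cluster between them), the Lyve1 Cd163 cluster left out or no filter on low counts. Ptgds was lost in 6 of 25 alternatives (-0.97 to -0.54, adjusted p = 0.0572 to 0.317). For Ptgds these were the fits without B2m-null CD40 pool 2 or B2m-null isotype pool 1 and the fits with cells thinned to 1000 UMIs, clustering at resolution 2, lanes as units or a stricter cell filter. Lpcat2 was lost in 3 of 25 alternatives, without B2m-null CD40 pool 2 or B2m-null isotype pool 2, or with cells thinned to 1000 UMIs (0.47 to 0.68, adjusted p = 0.0627 to 0.227).

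Between tumour types, 4 of the 32 genes passed in macrophages under isotype antibody, against 8.57% of all genes. Ggt5 (1.68, adjusted p = 0.0208) and Akr1b3 (0.35, adjusted p = 0.0213) were higher in B2m-null tumours, and Fpr2 (-1.29, adjusted p = 0.00388) and Cyp4f18 (-0.90, adjusted p = 0.00441) were lower. Under anti-CD40, 3 passed, against 12.0% of all genes, all lower in B2m-null tumours: Ptgds (-1.49, adjusted p = 8.30e-04), Ptger2 (-1.25, adjusted p = 0.0113) and Mgst1 (-0.83, adjusted p = 0.0268). The difference of the CD40 effects passed for 4, against 16.0% of all genes, all negative as for Ltc4s: Pla2g4b (-1.49), Ptger2 (-1.13), Ptgds (-0.98) and Mgst1 (-0.94), with adjusted p-values of 0.0473, 0.0475, 0.0262 and 0.0357. Of these, Pla2g4b was low, at 0.442 to 1.21 CPM in control isotype mice. Under isotype antibody Ggt5 was lost in 4 of 25 alternatives, without B2m-null isotype pool 1 or control isotype pool 1 or 2, or with a stricter cell filter (1.36 to 1.85, adjusted p = 0.0606 to 0.125). Akr1b3 was lost in 6 of 25 alternatives (0.17 to 0.29, adjusted p = 0.0609 to 0.351). For Akr1b3 these were the fits without B2m-null isotype pool 1 or control isotype pool 1 and the fits with cells thinned to 1000 UMIs, clustering at resolution 2 or lanes as units (also with unhashed cells added). Fpr2 was lost in 3 of 25 alternatives, without control isotype pool 1, or with macrophages and monocytes joined (also with the unnamed cluster between them) (-1.16 to -0.99, adjusted p = 0.0588 to 0.109). Under anti-CD40 Ptger2 was lost in 5 of 24 alternatives (-1.18 to -0.93, adjusted p = 0.0506 to 0.125). For Ptger2 these were the fits without B2m-null CD40 pool 1 or control CD40 mouse 1 and the fits with clustering at resolution 2 or lanes as units (also with unhashed cells added). Mgst1 was lost in 6 of 24 alternatives (-0.91 to -0.48, adjusted p = 0.0679 to 0.186). For Mgst1 these were the fits without B2m-null CD40 pool 1 or control CD40 mouse 1 or 2 and the fits with clustering at resolution 2 or lanes as units (also with unhashed cells added). Ptgds was lost in 1 of 24 alternatives, with cells thinned to 1000 UMIs (-1.55, adjusted p = 0.108). The difference of the CD40 effects was lost for Pla2g4b in 15 of 20 alternatives (-1.82 to -0.86, adjusted p = 0.0511 to 0.3697). For Pla2g4b these were the fits without B2m-null CD40 pool 1 or 2, B2m-null isotype pool 1 or 2, control CD40 mouse 1 or 2, control CD40 lane 1 or 2, control isotype pool 1 or the B2m-null isotype mouse with the fewest macrophages and the fits with lanes as units (also with unhashed cells added), macrophages and monocytes joined (also with the unnamed cluster between them) or no filter on low counts. It was lost for Ptger2 in 16 of 23 alternatives (-1.37 to -0.71, adjusted p = 0.0502 to 0.279). For Ptger2 these were the fits without B2m-null CD40 pool 1 or 2, B2m-null isotype pool 1 or 2, control CD40 mouse 1 or 2, control CD40 lane 1 or 2, control isotype pool 1 or the B2m-null isotype mouse with the fewest macrophages and the fits with RLE scaling, cells thinned to 1000 UMIs, clustering at resolution 2, lanes as units (also with unhashed cells added) or a stricter cell filter. For Ptgds it was lost in 9 of 23 alternatives (-1.12 to -0.63, adjusted p = 0.0617 to 0.3899). For Ptgds these were the fits without B2m-null CD40 pool 2, B2m-null isotype pool 1, control CD40 mouse 2 or control isotype pool 1 and the fits with cells thinned to 1000 UMIs, clustering at resolution 2, lanes as units (also with unhashed cells added) or a stricter cell filter. For Mgst1 it was lost in 12 of 23 alternatives (-1.02 to -0.59, adjusted p = 0.0513 to 0.231). For Mgst1 these were the fits without B2m-null CD40 pool 1, B2m-null isotype pool 1, control CD40 mouse 1 or 2, control CD40 lane 2 or control isotype pool 1 and the fits with cells holding T cell transcripts left out, clustering at resolution 2, lanes as units (also with unhashed cells added) or macrophages and monocytes joined (also with the unnamed cluster between them).

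In monocytes 25 of the 53 genes could be tested. Under anti-CD40, 5 rose and 1 fell in control tumours (6 of 25, against 15.0% of all genes), and 7 rose and 6 fell in B2m-null tumours (13 of 25, against 33.8%). Hpgd fell in both (log2 fold change -2.40, SE 0.56, adjusted p = 0.00487, and log2 fold change -3.79, SE 0.55, adjusted p = 1.48e-05), beside the rise of Ptges. Its range was 16.3 to 45.8 CPM in isotype and 4.096 to 7.23 CPM in CD40 mice with control tumours, and 19.8 to 52.8 CPM and 0.316 to 4.996 CPM with B2m-null tumours. Fpr2 rose in both (1.92, adjusted p = 7.36e-06, and 1.52, adjusted p = 7.27e-05). It is a leading gene of cluster 8, which held more of the monocytes of CD40 mice, and the part of this in the rise was not tested. Lpcat2 rose in both (0.84, adjusted p = 0.00184, and 1.32, adjusted p = 5.13e-06). In control tumours Tbxas1, the thromboxane synthase (0.98, adjusted p = 0.00248), Abcc1, an exporter of leukotriene C4 (0.80, adjusted p = 0.0174), and Pla2g7 (0.70, adjusted p = 0.0222) rose. In B2m-null tumours Cbr1 (2.31), Ptgr1 (1.15) and Mgst3 (1.09) rose, and Ggt5 (-1.68) and Ptgir (-1.27) fell, with adjusted p-values of 0.00339, 0.0141, 0.0131, 0.0389 and 0.0233. With clustering at resolution 2 the 6 calls of control tumours were lost, with Hpgd at -1.06, adjusted p = 0.644, and in B2m-null tumours those of Hpgd (-0.35, adjusted p = 0.793), Fpr2 (0.72, adjusted p = 0.193), Ptgr1 (0.30, adjusted p = 0.803) and Mgst3 (0.95, adjusted p = 0.09301). In control tumours Hpgd was lost in 4 of 21 alternatives (-2.33 to -1.06, adjusted p = 0.0591 to 0.644). For Hpgd these were the fits without control CD40 mouse 2 or control isotype pool 1 and the fits with clustering at resolution 2 or lanes as units and unhashed cells added. Lpcat2 was lost in 3 of 21 alternatives, without control CD40 mouse 2 or control isotype pool 1, or with clustering at resolution 2 (0.58 to 0.66, adjusted p = 0.0735 to 0.242). Tbxas1 was lost in 5 of 21 alternatives (0.62 to 0.87, adjusted p = 0.0561 to 0.218). For Tbxas1 these were the fits without control CD40 lane 1 or control isotype pool 1 and the fits with cells thinned to 1000 UMIs, clustering at resolution 2 or lanes as units and unhashed cells added. Abcc1 was lost in 8 of 21 alternatives (-0.13 to 0.96, adjusted p = 0.0779 to 0.894). For Abcc1 these were the fits without control CD40 mouse 1 or 2, control CD40 lane 2 or control isotype pool 1 and the fits with cells thinned to 1000 UMIs, clustering at resolution 2 or lanes as units (also with unhashed cells added). Pla2g7 was lost in 9 of 21 alternatives (-0.26 to 0.80, adjusted p = 0.05697 to 0.718). For Pla2g7 these were the fits without control CD40 mouse 1 or 2, control CD40 lane 1 or control isotype pool 1 and the fits with cells thinned to 1000 UMIs, clustering at resolution 2, lanes as units (also with unhashed cells added) or a stricter cell filter. In B2m-null tumours Cbr1 was lost in 1 of 16 alternatives, without B2m-null isotype pool 2 (7.09, adjusted p = 0.176). Ptgr1 was lost in 3 of 21 alternatives, without B2m-null isotype pool 2, or with clustering at resolution 2 or a stricter cell filter (0.30 to 1.10, adjusted p = 0.134 to 0.803). Mgst3 was lost in 3 of 21 alternatives, without B2m-null isotype pool 2, or with clustering at resolution 2 or lanes as units (0.95 to 2.42, adjusted p = 0.0542 to 0.164). Ptgir was lost in 2 of 18 alternatives, without B2m-null isotype pool 2, or with DESeq2 (-1.14 to -0.62, adjusted p = 0.107 to 0.807). Ggt5 was lost in 3 of 16 alternatives, without B2m-null CD40 pool 1, or with cells holding T cell transcripts left out or lanes as units (-1.66 to -1.46, adjusted p = 0.0591 to 0.137).

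Between tumour types, 0 of the 25 passed in monocytes under isotype antibody by edgeR's test (3 at an unadjusted p under 0.05, 0 by DESeq2, which gave no adjusted p for 13), against 1.12% of all genes. Under anti-CD40 2 passed, against 8.72%: Ptgr1 was higher (1.33, adjusted p = 0.0264) and the prostaglandin E2 receptor Ptger4 lower (-1.17, adjusted p = 0.0038) in B2m-null tumours. The CD40 effect differed between the tumour types for 1 gene, against 7.24%, which was Ptger2 (-1.68, adjusted p = 0.0344). Ptgr1 was lost in 8 of 19 alternatives (1.28 to 2.08, adjusted p = 0.0637 to 0.335). For Ptgr1 these were the fits without control CD40 mouse 1 or 2 or control CD40 lane 1 or 2 and the fits with clustering at resolution 2, lanes as units (also with unhashed cells added) or a stricter cell filter. Ptger4 was lost in 2 of 21 alternatives, without control CD40 mouse 2, or with lanes as units and unhashed cells added (-1.19 to -1.11, adjusted p = 0.105 to 0.133). Ptger2 was lost in 12 of 19 alternatives (-2.05 to 0.44, adjusted p = 0.0606 to 0.882). For Ptger2 these were the fits without B2m-null CD40 pool 2, B2m-null isotype pool 1, control CD40 mouse 1 or 2, control CD40 lane 1 or 2 or control isotype pool 1 or 2 and the fits with clustering at resolution 2, lanes as units (also with unhashed cells added) or a stricter cell filter. Of the 23 pathway genes tested in conventional dendritic cells, 1 passed edgeR's test for anti-CD40 in B2m-null tumours, against 10.3% of all genes, and 2 were called by DESeq2. By edgeR it was Cysltr1, which fell (log2 fold change -0.97, SE 0.25, adjusted p = 0.0181). Of the 13 tested in neutrophils, 0 passed edgeR's test in any comparison, against at most 0.336% of all genes in the 4 comparisons of groups, with at most 4 at an unadjusted p under 0.05 and 0 by DESeq2, which gave no adjusted p for up to 8.

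**Figure D5:**
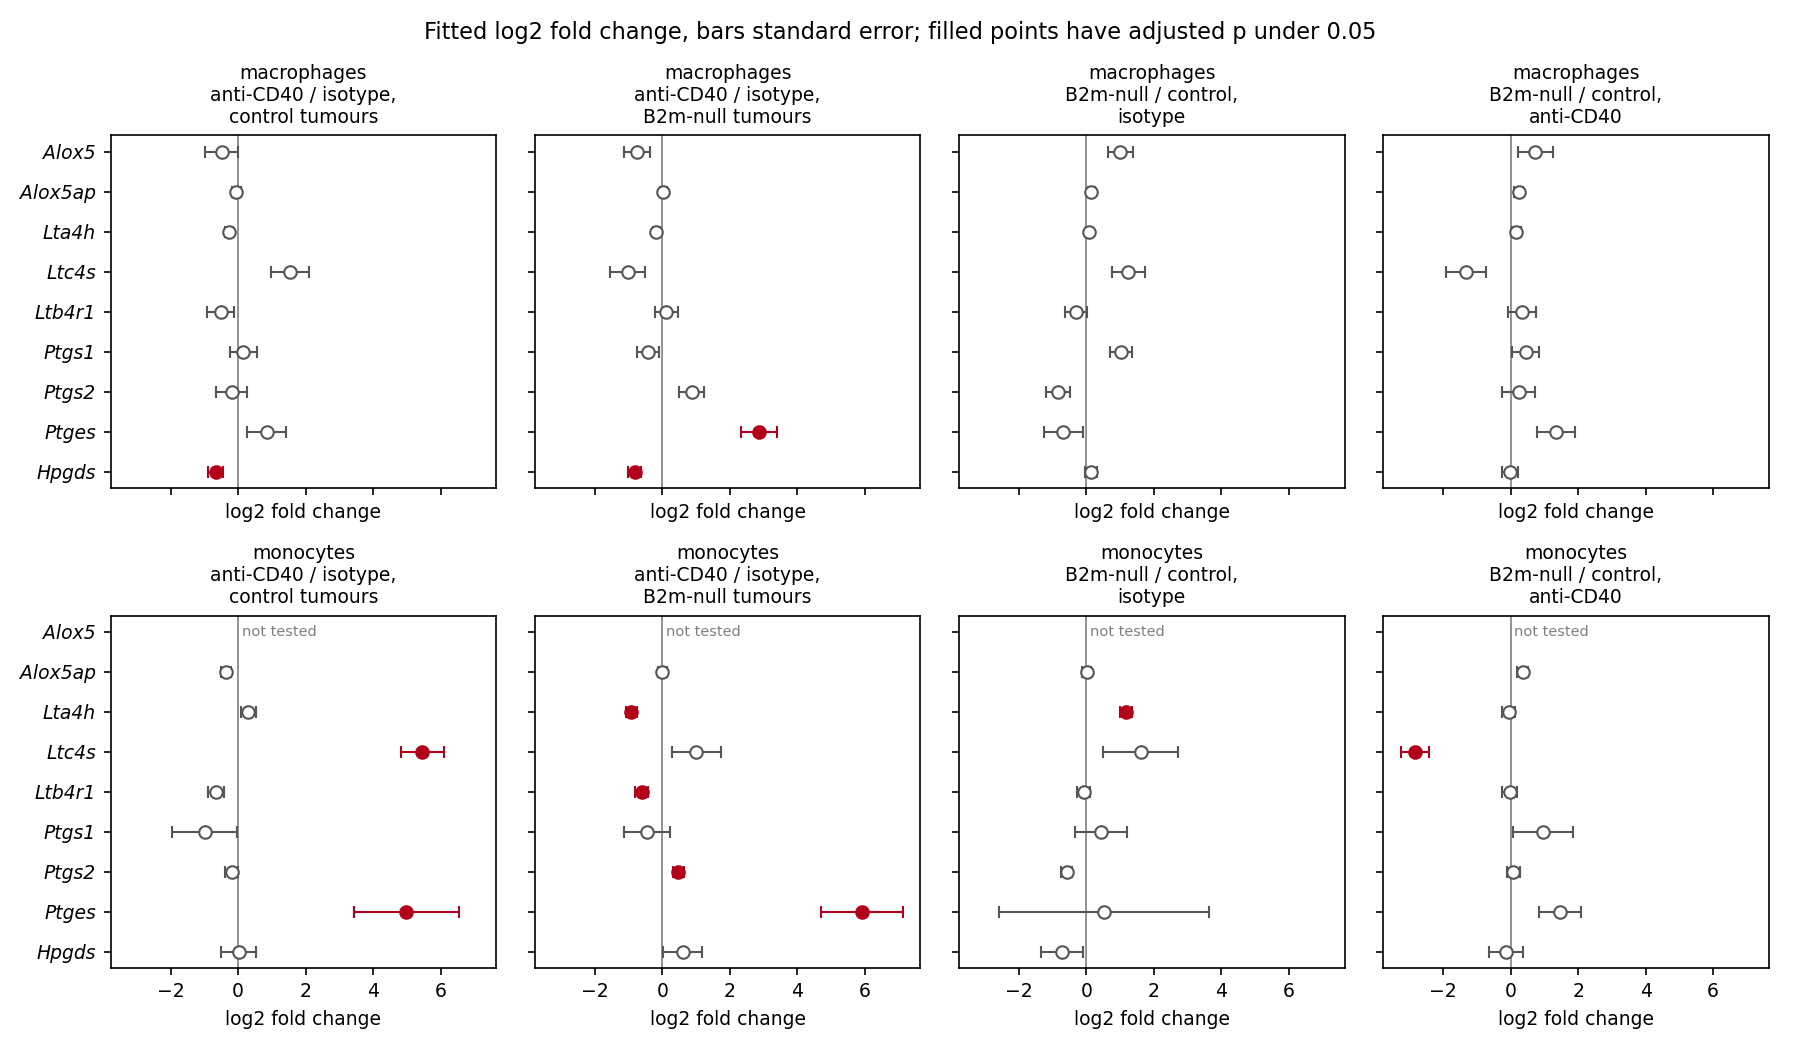
Log2 fold changes of the members in macrophages and monocytes for the comparisons of anti-CD40 with isotype antibody and of B2m-null with control tumours, with bars for the SE and filled points for an adjusted p under 0.05. Ltc4s is positive in control tumours and negative in macrophages of B2m-null tumours under anti-CD40, Ptges is positive and Hpgds in macrophages negative in both.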

How the data were processed

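The deposited files hold whole-number counts of UMIs per gene and barcode, with hashtag counts, made by the authors with Cell Ranger 3.0.0 and bcl2fastq 2.20.0.422 on mm10, per the submitters' processing notes. The labels list 3 hashtags per pool, but 6 of 8 files hold 2. Cells were kept from 200 detected genes upward and up to 10% mitochondrial UMIs, assigned to mice by hashtag (at least 20 counts), and clustered on 2000 variable genes without the members (40 components, 20 neighbours, Leiden resolution 1). Doublets were removed by hashtag only, so that 2 cells of 1 mouse could remain. Counts were summed per mouse and cell set and tested with edgeR 4.0.16 (quasi-likelihood, TMM, low-count filter, 4 groups in 1 model, R 4.3.3), with Benjamini-Hochberg adjustment over all genes tested; a call is an adjusted p under 0.05, and SE is the log2 fold change divided by the root of F. Fits on simulated data called 72 of 100 genes changed by 1 log2 unit and 89 of 100 changed by 1.5 (macrophages, control tumours, 11931 genes). The changed genes were drawn at any level and no pool effect was simulated. They were also far fewer than the genes called in the data, which affects the adjustment of p. The rates therefore need not hold for the real fits or for sparse members. DESeq2 1.42.0, other scaling, filters, thinned cells, lanes as units, other clustering and left-out libraries were alternatives. Text names all 9 members, up to 8 pathway genes past the threshold per set and comparison by size (and Cysltr1 in macrophages of B2m-null tumours, added after its value was seen), and up to 3 most-like genes per member, of which 1 is not reported here. The members and lists were chosen with earlier results of these data known. Nothing in the sources says that replicate numbers pair mice.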

Additional observations from a re-analysis of the deposited data

Results flagged for a closer look

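In 89 checks of member levels within groups of 4 or 5 mice, 6 values, from 5 mice, stood apart from the rest of their group, where chance gives about 1 in 20. Of the B2m-null isotype mice, mouse 2 of pool 1, with 170 macrophages, had Ltc4s at 204.7 CPM in macrophages against 83.09 CPM in the nearest mouse, and Alox5 at 34.90 CPM against 14.96 CPM. In the same group, mouse 1 of pool 2 had Ptgs2 in macrophages at 298.8 CPM against 84.38 CPM, over 1959 cells. Of the B2m-null CD40 mice, mouse 2 of pool 1 had Ptges in macrophages at 18.62 CPM against 7.825 CPM, over 1436 cells. Of the control isotype mice, mouse 1 of pool 1 had the lowest Alox5ap in macrophages, 360.0 CPM against 451.7 CPM, over 1251 cells, and mouse 1 of pool 2 had Ptgs1 in conventional dendritic cells at 2.273 CPM against 1.340 CPM, over 514 cells.

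The effect of anti-CD40 differed between control and B2m-null tumours by the interaction term for 5 member results. For Ltc4s the difference of the log2 fold changes was -2.565 in macrophages, -1.575 in cluster 2, -2.782 in cluster 5 and -4.449 in monocytes. For Lta4h in monocytes it was -1.226. The adjusted p-values and the mice and pools on which they rest are given with each result above.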

How the results depend on the processing

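Counted were the named calls in macrophages, monocytes and the clusters fitted alone. Ltc4s comparisons that did not pass were added for macrophages, and in cluster 2 for anti-CD40 in B2m-null tumours. Over these results, 1264 values under an alternative kept their direction and side of the threshold, 323 no longer passed, 25 newly passed and 4 changed sign. The 25 were all of Ltc4s, and new passes of other members, such as those with UMI totals above, were not counted. The 4 were all at resolution 2 in monocytes, where the class was drawn from other cells: Ltb4r1 in B2m-null tumours (0.3378), Abcc1 (-0.1319) and Pla2g7 (-0.2625) in control tumours, and the Ptger2 difference of CD40 effects (0.4356). The cause was not tested.

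The number of members called in macrophages moved as follows. The main fits called 22.6% and 31.7% of all genes for anti-CD40 in control and B2m-null tumours. Between tumour types they called 8.57% under isotype antibody and 12.0% under anti-CD40, and 16.0% for the difference of CD40 effects. Shares of all genes under the alternatives are not given here, so the counts are not read as results about the members. For anti-CD40 in control tumours 1 member was called, and 2 with cells thinned to 1000 UMIs, at resolution 2 and with no low-count filter. Alternatives chosen after seeing the data gave 4 outside the Lyve1 Cd163 cluster, 2 with scaling by UMI totals and 2 without the B2m-null isotype mouse with fewest macrophages. Leaving out 1 library or mouse gave 0 to 2, with 0 without either control CD40 mouse. In B2m-null tumours it was 2, 3 with scaling by UMI totals, 4 outside that cluster, and 2 to 3 with a library left out. Between tumour types under isotype antibody it was 0, and 1 under DESeq2, thinning, resolution 2, lanes as units, the stricter cell filter and without cells holding T cell transcripts. It was 1 with scaling by UMI totals, 2 outside the cluster, 3 with no low-count filter, and 0 to 1 with a library left out. Under anti-CD40 it was 0, and 1 with the stricter cell filter. The count for the difference of CD40 effects was 1, and 0 to 3 with a library left out, with 0 without either control CD40 mouse and 3 without B2m-null isotype pool 2.

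With the replicate block, fitted without the control CD40 group, 2 members were called in macrophages for anti-CD40 in B2m-null tumours and 0 between tumour types, and 3 and 1 in monocytes. The share of all genes called with the block is not given here. Deviations of same-numbered pools correlated at -0.0196, 0.0595 and 0.127 across 13551 genes, so the numbers were not taken to pair them. Depth limits Ptges, Alox5 and Ptgs1, with at most 1753 UMIs each over all cells, and the 2 control CD40 mice of 1 pool limit every comparison with that group.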

Other observations

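The clusters that stayed unnamed also held members. Cluster 4, led by Ccl24, Retnla and Ear2, had Alox5ap at 314 to 668 CPM (median 564, 16 mice) and Lta4h at 11.4 to 67.2 CPM (median 31.01, 16 mice). Cluster 15, led by Mmp9, Ctsk and Acp5, genes known from osteoclasts, had Ltc4s at 5.93 to 19.4 CPM (median 12.7, 2 mice) and Ptgs2 at 0 to 17.8 CPM (median 8.899, 2 mice). Cluster 10, in which 72.01% of cells held transcripts of both T cells and macrophages, had Ltc4s at 0 to 54.5 CPM (median 8.86, 15 mice) and Alox5ap at 213 to 464 CPM (median 343, 15 mice).

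Outside the immune cells, Ltc4s in fibroblasts was at 4.22, 7.74, 12.04, 15.3 and 24.5 CPM in 5 isotype mice and 106 and 223 CPM in 2 CD40 mice with control tumours, which did not overlap, and at 25.9, 96.9 and 101 CPM in 3 CD40 mice with B2m-null tumours, where no isotype mouse had 20 fibroblasts. Each of these mice had between 23 and 167 fibroblasts, and the values were not tested. Fibroblasts also held Alox5ap, at 10.5 to 124 CPM (median 97.6, 10 mice). In the larger fibroblast cluster 9.22% of cells held transcripts of both T cells and macrophages. The part of transcripts from other cells in the fibroblast Ltc4s levels was not tested. Ptgs2 in fibroblasts was at 116 to 383 CPM (median 196, 10 mice). Melanoma cells held Lta4h at 57.99 to 109.7 CPM (median 96.2, 9 mice) and Hpgds at 39.5 to 106 CPM (median 91.1, 9 mice), and Alox5ap, a myeloid gene, at 17.8 to 78.5 CPM (median 31.00, 9 mice).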
